A study of Mus musculus with 9 samples.

Results

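The genes described here carry the signals of TGF-beta, activins and bone morphogenetic proteins (BMPs): the secreted ligands, the proteins that store or block them, the receptors and the SMAD proteins that take the signal to the nucleus. They were taken by symbol from the 26214 genes of the deposited table, whatever their values: Tgfb1 to Tgfb3, Tgfbr1 to Tgfbr3, Ltbp1 to Ltbp4, Inhba, Inhbb, Inhbe, Mstn, Smad1 to Smad9, Grem1, Nog, Chrd, Nbl1, the numbered Bmp and Gdf genes, and all genes whose symbol starts with Bmpr, Acvr or Fst. This gave 62 genes. Of these, 49 had a mean value of at least 10 over the 8 libraries compared and entered the tests, and 13 did not.

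TGF-beta ligands are secreted in a latent form, bound to latent TGF-beta binding proteins (LTBPs) and stored in the extracellular matrix until they are released. Free ligands bring together type I and type II receptor kinases; TGF-beta and activin receptors phosphorylate Smad2 and Smad3, BMP receptors phosphorylate Smad1, Smad5 and Smad9, and both sets act in the nucleus with Smad4. In stromal cells of muscle and fat, TGF-beta is known for inducing matrix and contractile genes, and BMPs for acting on adipogenic and osteogenic differentiation.

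RNA was sequenced from bulk-sorted adipose stromal cells (ASCs) of subcutaneous adipose tissue (ScAT) and fibro-adipogenic progenitors (FAPs) of quadriceps muscle, to compare them 1 day after an injection into the quadriceps (1 dpi). All libraries came from C57Bl/6 mice, which the study's methods give as C57Bl/6 J males aged 8 to 12 weeks. For ASCs and FAPs, CD31 and CD45 positive cells were depleted and Sca-1 positive cells then selected with magnetic beads. The groups were ASCs after NaCl, the non-injured control (3 libraries), FAPs after NaCl (2 libraries), and FAPs after glycerol, which damages muscle fibres (injured FAPs, 3 libraries). The CD31+CD45+ cells of glycerol-injected quadriceps were sequenced in 1 library, which was left out of the tests for lack of a replicate. The study's reporting summary states that the triplicates of a cell type came from cells pooled from 3 animals. The methods also speak of triplicates, but the data hold only 2 FAP libraries, and the sources do not say why. The p-values below measure only the spread between these libraries, which may be technical. Reads on genes numbered 27481573, 27349184 and 27402102 in ASCs, 24052508 and 24164447 in FAPs, 26968235, 26698572 and 27028114 in injured FAPs, and 13091077 in the CD31+CD45+ library. Values are the authors' normalized counts, which are reads scaled by a factor particular to each library. At 3 reads, the floor used here, the value lies between 2.29 and 4.71.

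The labelled cell types were checked against marker genes. Pdgfra, the receptor (CD140a) that marks both ASCs and FAPs, had values of 10837, 15083 and 13043 in ASCs, 17754 and 17756 in FAPs, 23649, 25268 and 23236 in injured FAPs and 119 in the CD31+CD45+ library. Ly6a, which encodes Sca-1, reached 46513, 49855 and 36777 in ASCs, 16542 and 10823 in FAPs and 24309, 21308 and 24855 in injured FAPs. Ptprc, which encodes CD45, was at 0, 1.13 and 0 in ASCs, at 0 in both FAP libraries and at 11.8, 55.8 and 9.92 in injured FAPs, against 797 in the CD31+CD45+ library. Pecam1, which encodes CD31, was at 82.99, 46.4 and 67.8 in ASCs, 195 and 0 in FAPs and 192, 269 and 121 in injured FAPs, against 45323 in the CD31+CD45+ library. The markers that define the sorted cells were thus present in each of the 8 libraries, and Ptprc was low or at 0 in them.

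Marker lists of other cell types differed between the groups, and their part in the results below was not tested. The 9 tenocyte markers, of which Thbs4 was the most abundant, summed to 3450.2, 2804 and 2616 in ASCs, 279729 and 315950.4 in FAPs and 200506, 203153 and 186925 in injured FAPs, and none of them was at 0 in all 8 libraries. The 10 smooth muscle and pericyte markers, led by Cspg4, summed to 5528, 3522 and 4288 in ASCs, 25332 and 21988 in FAPs and 10579.8, 10221 and 10792 in injured FAPs. The 15 leukocyte markers, led by Cd14, summed to 514, 412 and 373 in ASCs, 38.04 and 68.7 in FAPs and 639, 3126 and 549 in injured FAPs; Cd3e was at 0 in all 8 libraries, and 12 of the 15 were at 0 in both FAP libraries, Ptprc, Csf1r and Cd14 among them. Injured FAP replicate 2 thus held the highest leukocyte sum of the 8 libraries. The 14 endothelial markers, led by Tek, summed to 6647, 5227 and 7018 in ASCs, 7748 and 5439 in FAPs and 2081, 2288 and 1774 in injured FAPs, with Vwf, Emcn and Cldn5 at 0 in both FAP libraries, against 376999 in the CD31+CD45+ library. Tek sets this sum. Of 13 tested endothelial markers, 9 were lower in ASCs than in FAPs (23.8% of all tested genes were) and 3, Tek among them, higher (23.4%). In injured FAPs against FAPs 8 fell (27.7% of all tested genes did) and 2 rose (24.9%). Against ASCs, 9 were higher in injured FAPs (25% of all tested genes were) and only Tek was lower (25.8%).

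Of the remaining lists, the 12 stromal markers, led by Col1a1, summed to 3176049, 2880110.1 and 3329927 in ASCs, 1587281 and 1722210.3 in FAPs and 711564, 769316 and 693187 in injured FAPs. Muscle fibre markers (12, led by Tnnt3) summed to 171, 121 and 166 in ASCs, 1029 and 1179 in FAPs and 346, 370.4 and 284 in injured FAPs, and satellite cell markers (8, led by Vcam1) to 3141, 3069 and 3167, 1895 and 1922, and 4887, 4749 and 4502, in the same order. The satellite cell sum follows Vcam1. Of 5 tested markers the other 4 (Des, Pax7, Myod1 and Megf10) were lower in ASCs than in FAPs (23.8% of all tested genes were). In injured FAPs against FAPs Des and Pax7 fell (27.7% of all tested genes did) while Vcam1 rose (24.9%). Adipocyte markers (7, led by Fabp4) were higher in ASCs, with sums of 1291, 1302 and 1215, than in injured FAPs, with 238, 286 and 205, and FAPs had 1036 and 365. Schwann and perineurial markers (8, led by Slc2a1) summed to 5663, 2871 and 3073 in ASCs, 2150.0 and 3080.1 in FAPs and 3299, 2850.4 and 3544 in injured FAPs. Slc2a1 was higher in ASCs than in FAPs, and 5 of the 8 were lower (23.8% of all tested genes were). Mesothelial markers (5, led by Krt19) summed to 357, 58.9 and 128, 52.3 and 63.03, and 76.9, 63.5 and 83.1.

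In ASCs against FAPs, which sets the stromal cells of the fat depot beside those of the muscle, 33 of the 49 tested pathway genes passed the threshold (adjusted p under 0.05 from limma and a log2 fold change beyond 0.58 either way), where 47.2% of all 13601 tested genes did. They were split into 17 genes higher in ASCs (23.4% of all genes were) and 16 lower (23.8% of all genes were). In injured FAPs against FAPs, which sets cells sorted 1 day after glycerol beside those sorted after NaCl, 28 of the 49 passed, against 52.6% of all genes. Of these, 8 rose (24.9% of all genes did) and 20 fell (27.7% of all genes did). In injured FAPs against ASCs 37 passed, against 50.8% of all genes, with 10 higher (25% of all genes) and 27 lower in injured FAPs (25.8% of all genes). As shares of the 49 these were 67.3%, 57.1% and 75.5%. The 3 comparisons share libraries with each other, so their counts are not independent. Between them 43 of the 49 genes passed at least 1 comparison (87.8%, against 75.4% of all genes) and 16 passed all 3 (32.7%, against 14.8% of all genes), and Bmpr1a, Acvr1, Smad2, Smad3, Smad5 and Smad6 passed none. In bulk RNA, fewer cells of a type and less RNA per cell cannot be told apart, for any gene below.

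The median log2 fold change of the 49 genes was 0.05 in ASCs against FAPs, -0.14 in injured FAPs against FAPs and -0.84 in injured FAPs against ASCs. Over all tested genes it was 0.00, -0.05 and 0.02. Scaling every library to the same total of reads moved the median of all genes to -0.56, 0.08 and 0.71, and scaling to a common 75th percentile moved it to -0.20, -0.15 and 0.13. Relative to the median of all genes, the pathway genes lay at 0.04, -0.09 and -0.86 with the deposited scaling, which another factor per library hardly alters by construction, and at -0.04, -0.24 and -0.55 with quantile normalization. Quantile normalization gave 12 genes higher and 18 lower in ASCs against FAPs (3047 and 3004 of all genes), and the same total of reads gave 12 and 22 (1592 and 6317 of all genes). In injured FAPs against ASCs the same total of reads gave 17 higher and 17 lower, where 7378 of all genes were higher and 1692 lower.

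**Figure D1:**
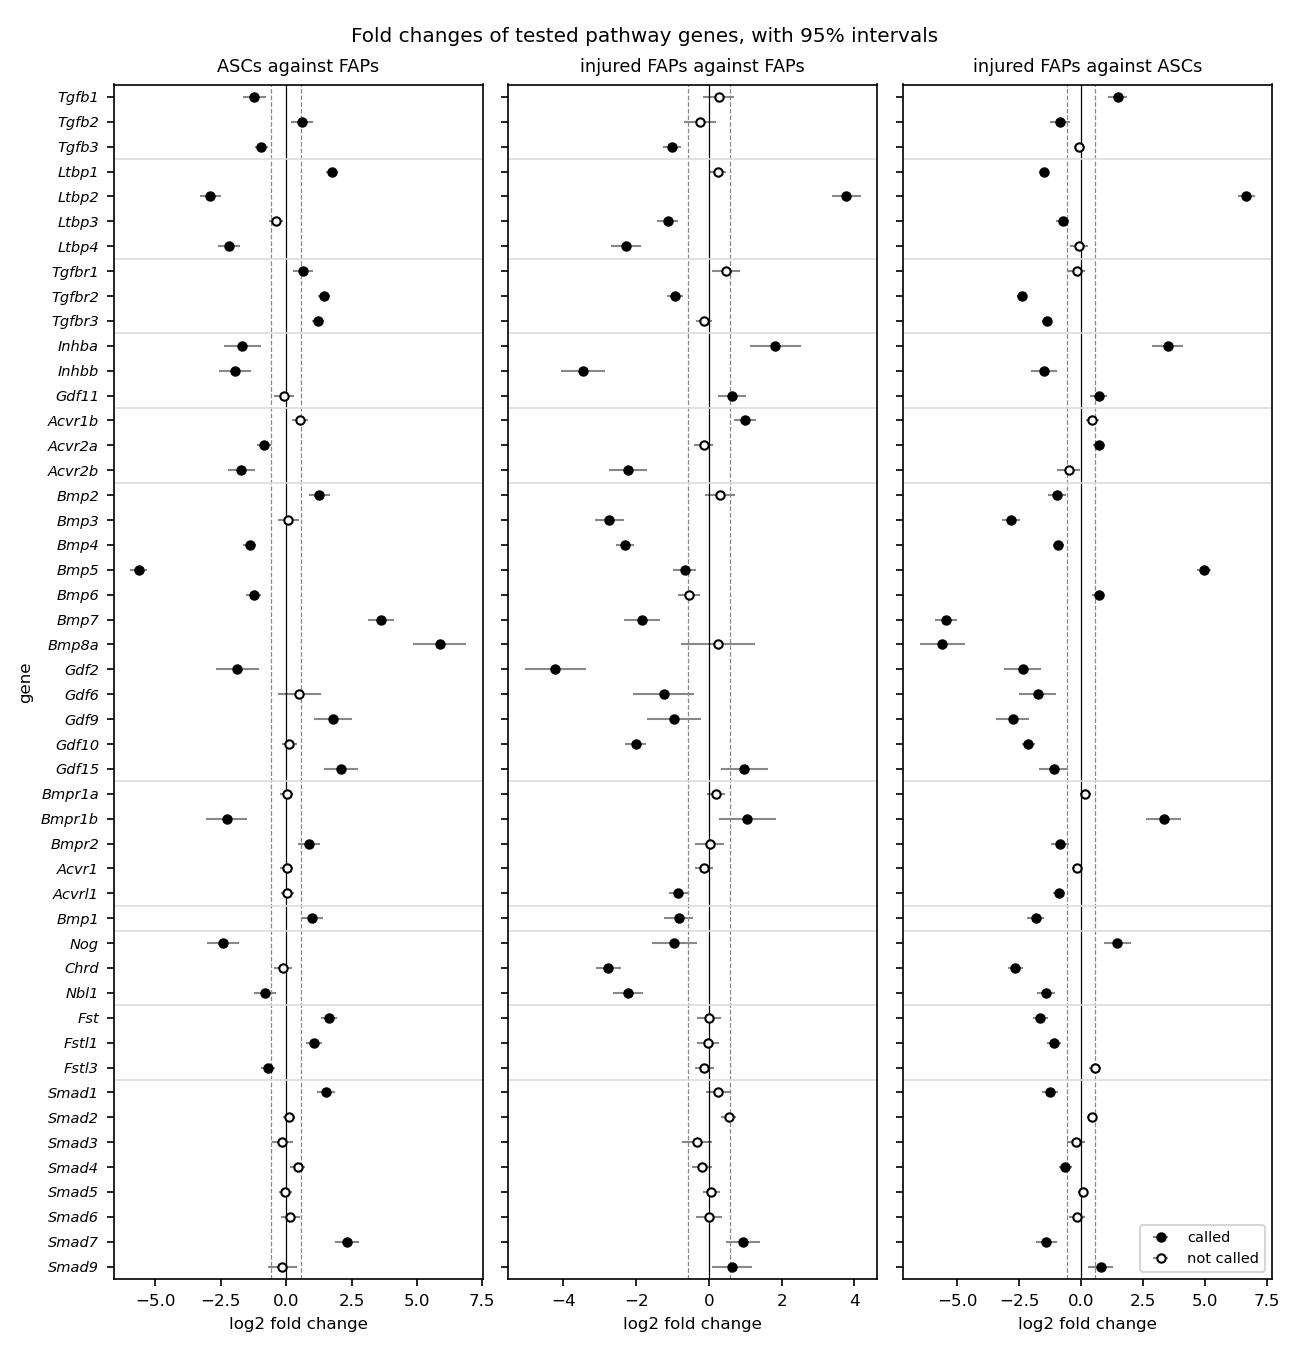
Log2 fold changes (horizontal axis) of 48 of the tested pathway genes, with 95% intervals from limma, in the 3 comparisons, ordered by role. Filled points passed the threshold and open points did not; dashed lines mark 0.58 either way. Ltbp2 lies at 3.78 in injured FAPs against FAPs, and Bmp8a and Bmp5 lie at 5.87 and -5.64 in ASCs against FAPs.

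**Figure D2:**
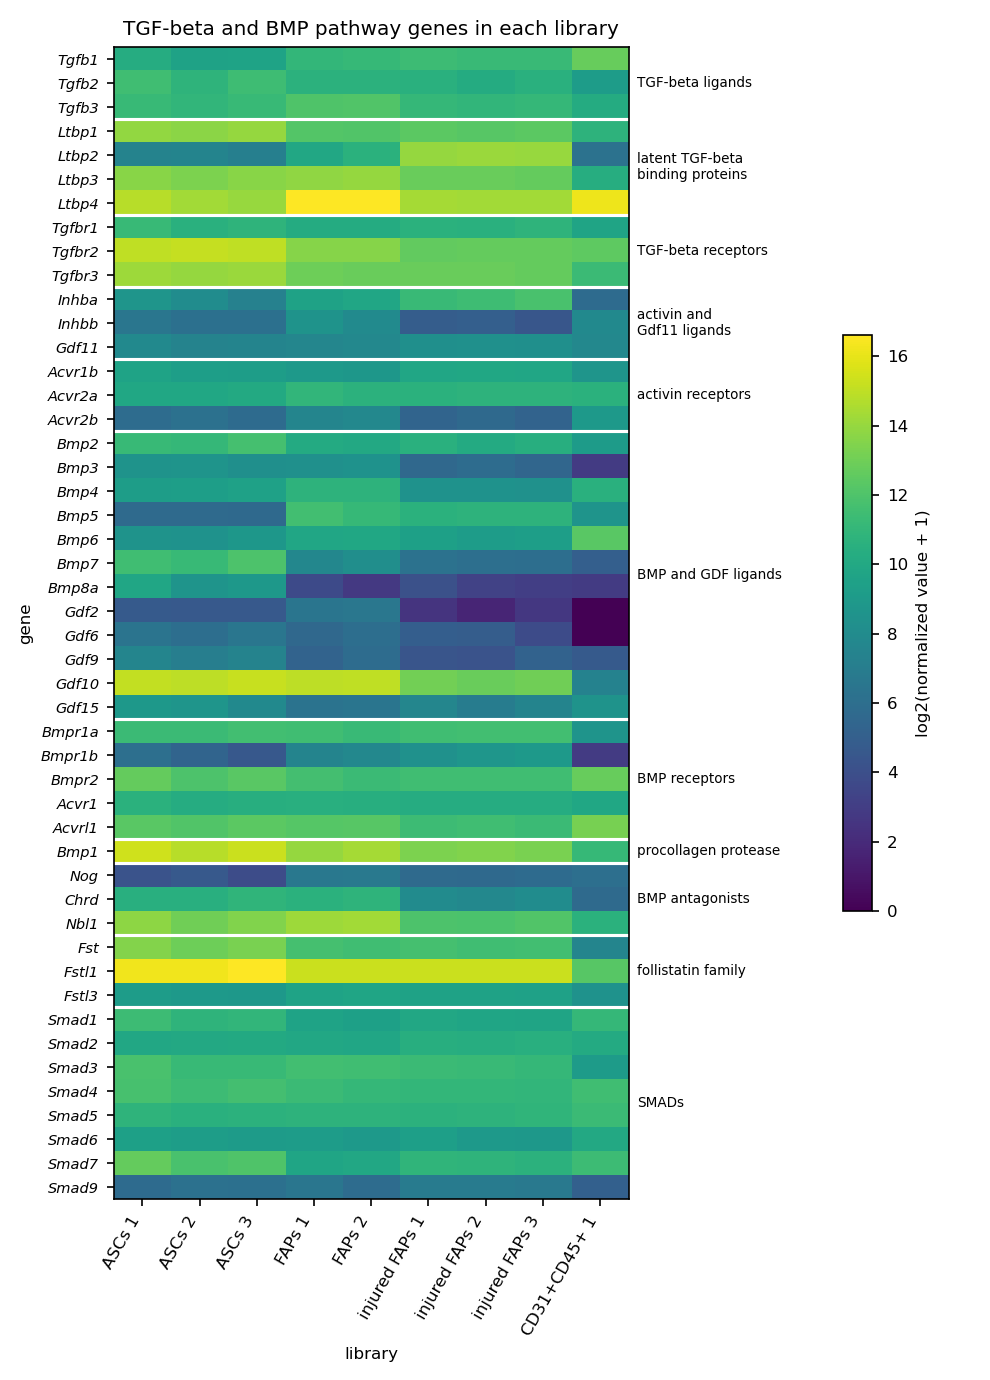
The values of 48 of the tested genes in each of the 9 libraries, as log2 of the normalized value plus 1, with the genes grouped by role. Fstl1 and Ltbp4 are among the brightest, and Ltbp2 is dark in the 3 ASC libraries and bright in the 3 injured FAP libraries.

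The remaining 13 genes had a mean under 10. Inhbe, Bmp10, Gdf1 and Fstl5 were at 0 in all 8 libraries. Bmp8b, Grem1, Fstl4 and Acvr1c never had more than 3 reads, with a highest value of 2.85. Mstn, the gene of myostatin, reached 7.61, Gdf3 6.20, Gdf5 8.56 and Gdf7 7.61. Bmp15 had 0, 0 and 1.26 in ASCs, 26.6 and 25.4 in FAPs and 4.71, 6.20 and 3.81 in injured FAPs. Counts below are of genes with a mean of at least 10, which a gene can reach through 1 group alone.

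Promoter sequences are shown for 5 of the genes whose change at 1 dpi the results turn on: Ltbp2 and Inhba, which rose most among the tested pathway genes, and Bmp4, Chrd and Gdf10, a ligand, an antagonist and the most abundant ligand among those that fell. They were chosen after their values were seen. The sequences are from RefSeq (GRCm38.p6), which held promoters for 45 of the 62 genes and none for 17. Each runs 5′ to 3′ on the strand of its gene and ends at the start of transcription; that of Ltbp2 stops 41 bases short of it, where the annotation places an exon of the gene. Capitals mark matches to CAGAC, the SMAD box, and GGCGCC, a GC-rich SMAD element, searched on both strands together with TGANTCA, the AP-1 motif. The windows are Ltbp2, minus strand, chr12:84876533-84876741; Inhba, plus strand, chr13:16011601-16011850; Bmp4, minus strand, chr14:46390670-46390919; Chrd, plus strand, chr16:20732877-20733126; and Gdf10, plus strand, chr14:33923337-33923586.
Ltbp2: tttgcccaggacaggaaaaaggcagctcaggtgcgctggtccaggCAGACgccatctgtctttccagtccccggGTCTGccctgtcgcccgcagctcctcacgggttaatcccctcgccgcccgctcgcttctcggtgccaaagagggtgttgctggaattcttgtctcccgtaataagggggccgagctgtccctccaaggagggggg
Inhba: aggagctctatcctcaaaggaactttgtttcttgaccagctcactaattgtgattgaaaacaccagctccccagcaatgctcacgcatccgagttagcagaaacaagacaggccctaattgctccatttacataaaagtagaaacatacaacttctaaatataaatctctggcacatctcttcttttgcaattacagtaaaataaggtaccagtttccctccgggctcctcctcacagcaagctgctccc
Bmp4: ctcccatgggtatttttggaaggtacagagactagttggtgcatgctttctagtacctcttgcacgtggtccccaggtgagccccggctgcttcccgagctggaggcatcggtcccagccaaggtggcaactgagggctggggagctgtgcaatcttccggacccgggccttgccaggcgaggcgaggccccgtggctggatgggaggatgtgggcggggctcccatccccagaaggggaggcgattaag
Chrd: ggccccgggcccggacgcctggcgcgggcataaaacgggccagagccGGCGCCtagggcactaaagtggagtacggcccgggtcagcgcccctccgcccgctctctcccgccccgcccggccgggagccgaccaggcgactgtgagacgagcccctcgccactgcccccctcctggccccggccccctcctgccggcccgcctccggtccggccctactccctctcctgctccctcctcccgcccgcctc
Gdf10: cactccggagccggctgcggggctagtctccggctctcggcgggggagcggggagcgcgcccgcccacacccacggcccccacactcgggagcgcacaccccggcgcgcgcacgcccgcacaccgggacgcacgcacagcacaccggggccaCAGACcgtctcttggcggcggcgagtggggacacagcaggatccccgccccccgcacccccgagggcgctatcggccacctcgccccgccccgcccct

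In the Ltbp2 window CAGAC matched at 2 places, which begin 205 and 176 bases before the start, and an exon of the antisense gene D030025P21Rik lies in the same window. Gdf10 held CAGAC at 98 bases before the start and Chrd held GGCGCC at 203 bases before it. Inhba and Bmp4 held none of the motifs, and none of the 5 held TGANTCA. Of all 32817 promoters, 42.2% held CAGAC, 9.59% GGCGCC and 6.75% TGANTCA in 250 bases, and 37.1%, 7.59% and 5.82% in 209 bases, the length of the Ltbp2 window. Of the 45 pathway genes with a promoter, 23 held CAGAC, 10 held GGCGCC and 1, Mstn, held TGANTCA, in 250 bases before at least 1 of their starts. These are counts of genes, some with several starts and so more chances of a match. They cannot be set against the shares of single promoters above. A match describes the letters only.

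Tgfb1, Tgfb2 and Tgfb3 encode the TGF-beta ligands. Tgfb1 had values of 1258, 749 and 793 in ASCs, 2015 and 2208 in FAPs and 2732, 2437 and 2463 in injured FAPs. The 3 ASC libraries were the lowest and the 3 injured FAP libraries the highest, with no overlap between groups. ASCs were lower than FAPs (log2 fold change -1.22, SE 0.19, adjusted p = 0.000359 from limma) and injured FAPs higher than ASCs (log2 fold change 1.48, SE 0.17, adjusted p = 2.92e-05 from limma), while injured FAPs against FAPs did not pass (log2 fold change 0.27, SE 0.19, adjusted p = 0.239 from limma). Injured FAP replicate 2, which had the highest leukocyte sum, had a Tgfb1 value of 2437. The CD31+CD45+ library, whose endothelial sum was 376999 and leukocyte sum 33639, had 6809.7. The part of leukocytes in these values was not tested.

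Tgfb2 had 2979, 1809.9 and 2864 in ASCs, 1657 and 1614 in FAPs and 1518, 1202 and 1464 in injured FAPs. Here the ASC libraries were highest, although ASC replicate 2 lay close to the FAPs. The log2 difference was 0.61 (SE 0.20) in ASCs against FAPs and -0.84 (SE 0.18) in injured FAPs against ASCs, with adjusted p = 0.0216 and 0.00167 from limma. Its call in ASCs against FAPs was lost without ASC replicate 1 (0.48), ASC replicate 3 (0.51), FAP replicate 1 (0.62) or FAP replicate 2 (0.59), and under each other scaling (0.04 with the same total of reads), and that in injured FAPs against ASCs with the same total of reads (-0.14).

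Tgfb3 had 2312, 1934 and 2344 in ASCs, 4133 and 4325 in FAPs and 2167, 1982 and 2124 in injured FAPs. Both FAP libraries lay above all others, and ASCs and injured FAPs overlapped. It was lower in ASCs than in FAPs (log2 fold change -0.95, SE 0.11, adjusted p = 3.93e-05 from limma) and fell in injured FAPs (log2 fold change -1.02, SE 0.11, adjusted p = 1.99e-05 from limma); between injured FAPs and ASCs the difference was -0.07 (SE 0.10), and 0.63, past the threshold, with the same total of reads. Per kilobase of exon, Tgfb3 was the highest of the 3 ligands in all 3 groups, with mean levels of 649 in ASCs, 1250.0 in FAPs and 618 in injured FAPs. The rank of Tgfb1 differed between groups: its mean level per kilobase was 185, 419 and 505, below Tgfb2 (440.5) in ASCs and above it in FAPs (282) and injured FAPs (241).

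Among the LTBPs, Ltbp2 encodes a matrix protein of the fibrillin superfamily that, unlike the other LTBPs, is not known to hold latent TGF-beta. Its values were 174, 183 and 142 in ASCs, 995 and 1553 in FAPs and 16149.8, 17866 and 17308 in injured FAPs. The groups were far apart, in that order, with every injured FAP library above every other library. It rose 13.7-fold in injured FAPs against FAPs (log2 fold change 3.78, SE 0.18, adjusted p = 2.61e-07 from limma), and was 103-fold higher in injured FAPs than in ASCs (log2 fold change 6.68, SE 0.16, adjusted p = 2.26e-09 from limma) and lower in ASCs than in FAPs (log2 fold change -2.90, SE 0.18, adjusted p = 6.44e-07 from limma). The gene lies at chr12:84783212-84876532 (GRCm38, GENCODE M21), and its reads cannot be told apart from those of the antisense gene D030025P21Rik where their exons overlap.

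Ltbp4, which binds latent TGF-beta1 and takes part in elastic fibre assembly, had 29143, 20167 and 17241 in ASCs, 98512 and 100287 in FAPs and 21073, 20077 and 20283 in injured FAPs. The FAP libraries were the high ones, and ASCs and injured FAPs overlapped. Ltbp4 was 4.59-fold lower in ASCs (log2 fold change -2.20, SE 0.19, adjusted p = 6.10e-06 from limma) and fell 4.85-fold in injured FAPs (log2 fold change -2.28, SE 0.19, adjusted p = 4.16e-06 from limma). Between injured FAPs and ASCs its log2 difference was -0.08, and 0.71 with quantile normalization or 0.62 with the same total of reads, both past the threshold. In mean level per kilobase of exon Ltbp4 stood at 15379.8 in FAPs, where Ltbp3 was at 1730.3, Ltbp1 at 425 and Ltbp2 at 156. In injured FAPs the levels were 3168 for Ltbp4 and 2090.4 for Ltbp2. The tenocyte and smooth muscle sums given above were also highest in the FAP libraries. Between ASCs and injured FAPs, where Ltbp4 overlapped, both sums were higher in injured FAPs. Those of tenocyte markers were 3450.2, 2804 and 2616 in ASCs and 200506, 203153 and 186925 in injured FAPs. The part of these cells was not tested.

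Ltbp1, which anchors latent TGF-beta in the matrix, had 15654, 13757 and 16235 in ASCs, 4648 and 4430.2 in FAPs and 5466, 5146 and 5482 in injured FAPs. ASCs stood above both muscle groups (log2 fold change 1.74 (SE 0.10) against FAPs and -1.50 (SE 0.09) for injured FAPs against ASCs, adjusted p = 5.02e-07 and 3.41e-07 from limma). With quantile normalization the first of these was 1.09, still past the threshold. Ltbp3, which helps to fold and secrete latent TGF-beta, had 13099.8, 10193 and 12733 in ASCs, 14811 and 16573 in FAPs and 7334, 7362 and 6730.2 in injured FAPs. It fell in injured FAPs against FAPs (log2 fold change -1.13, SE 0.13, adjusted p = 2.88e-05 from limma), and was lower than in ASCs by a log2 fold change of -0.74 (SE 0.11), a call that was lost with quantile normalization (-0.22) and the same total of reads (-0.04). Against FAPs, ASCs were at -0.39, which did not pass, and passed under each of the 3 other scalings (-1.04 with quantile normalization).

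Of the TGF-beta receptors, Tgfbr2, the type II kinase that binds the ligand, had 33433, 36281 and 32609.6 in ASCs, 12366 and 12589.7 in FAPs and 6315, 6685 and 6589 in injured FAPs. Each ASC library was above each FAP library, and each FAP library above each injured FAP library. Tgfbr2 was 2.73-fold higher in ASCs than in FAPs (log2 fold change 1.45, SE 0.10, adjusted p = 1.30e-06 from limma) and fell 1.91-fold in injured FAPs (log2 fold change -0.93, SE 0.10, adjusted p = 1.93e-05 from limma), so that injured FAPs lay 5.22-fold below ASCs (log2 fold change -2.38, SE 0.09, adjusted p = 2.24e-08 from limma). With quantile normalization the differences that involve ASCs were smaller, 0.68 and -1.70.

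Tgfbr3, the coreceptor betaglycan that presents TGF-beta to the kinases, had 18556, 16453 and 17964 in ASCs, 7900.0 and 7284 in FAPs and 7189, 7056 and 6492 in injured FAPs. ASCs were the high group, and the lowest FAP library lay only just above the highest injured FAP library. Against FAPs the log2 fold change was 1.22 (SE 0.10) (adjusted p = 5.24e-06 from limma), and 0.48, short of the threshold, with quantile normalization; injured FAPs were at -1.35 (SE 0.09) against ASCs and -0.14 (SE 0.10) against FAPs. Tgfbr1, the type I kinase (ALK5), had 2366, 1461 and 1803 in ASCs, 1182 and 1179.8 in FAPs and 1589, 1496 and 1812 in injured FAPs. Its log2 fold change was 0.64 (SE 0.17) in ASCs against FAPs, past the threshold, and 0.46 (SE 0.17) in injured FAPs against FAPs, which did not pass. The first call was lost without ASC replicate 1 (0.46) and, at adjusted p = 0.0501 and 0.0533 from limma, without FAP replicate 1 or 2; the 3 other scalings also ended it (0.07 with the same total of reads), while the latter passed with the same total of reads (0.59).

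**Figure D3:**
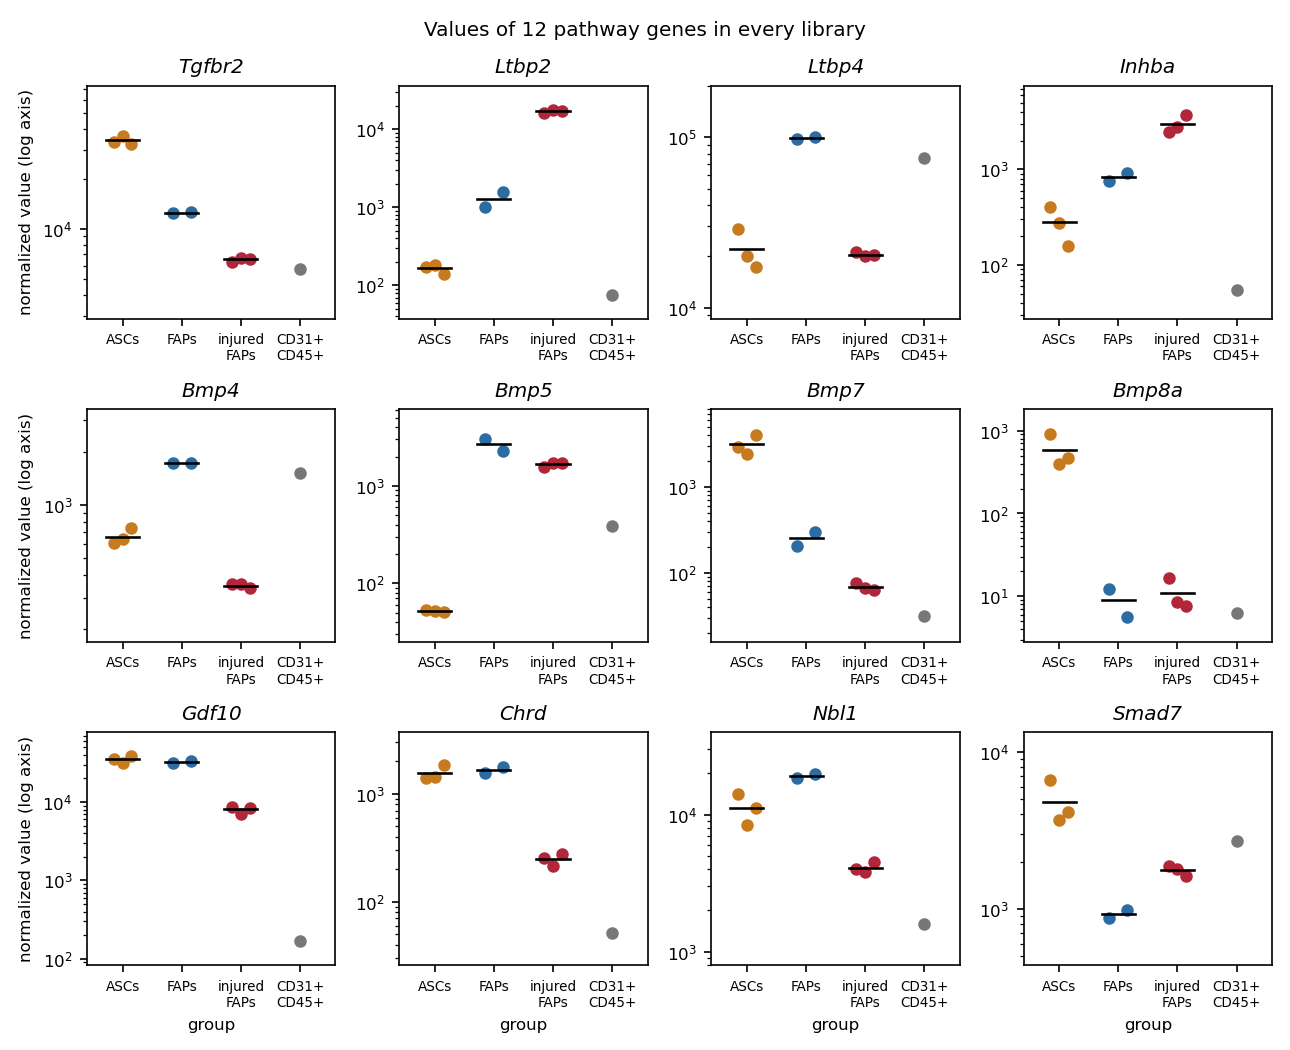
Values of 12 pathway genes in every library on a log axis, with a point per library and a bar at the mean of each group. The 3 injured FAP libraries are the highest for Ltbp2 and Inhba and the lowest of the 8 for Bmp4, Bmp7, Gdf10, Chrd and Nbl1.

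Inhba encodes the activin A subunit. Its values were 402, 275 and 158 in ASCs, 756 and 912 in FAPs and 2478, 2781 and 3722 in injured FAPs. The groups did not overlap, with ASCs lowest and injured FAPs highest. Inhba rose 3.55-fold in injured FAPs against FAPs (log2 fold change 1.83, SE 0.32, adjusted p = 0.000565 from limma), was lower in ASCs than in FAPs (log2 fold change -1.67, SE 0.32, adjusted p = 0.00117 from limma), and was 11.3-fold higher in injured FAPs than in ASCs (log2 fold change 3.50, SE 0.28, adjusted p = 2.42e-06 from limma).

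Inhbb, which encodes the activin B subunit, had 90.9, 70.2 and 69.05 in ASCs, 371 and 244 in FAPs and 28.2, 31.8 and 20.6 in injured FAPs. It went the other way from Inhba after injury: the FAP libraries were the highest and the injured FAP libraries the lowest. Inhbb fell 10.99-fold in injured FAPs against FAPs (log2 fold change -3.46, SE 0.27, adjusted p = 3.02e-06 from limma) and was also lower in ASCs than in FAPs (log2 fold change -1.97, SE 0.27, adjusted p = 0.000149 from limma). Gdf11, a ligand close to myostatin, had 237, 169 and 176 in ASCs, 193 and 214 in FAPs and 312, 325 and 309.7 in injured FAPs. The injured FAP libraries were above the rest, with log2 fold changes of 0.63 (SE 0.17) against FAPs and 0.72 (SE 0.15) against ASCs. The first call was lost without FAP replicate 1 (0.56) and with a common 75th percentile (0.54), and that against ASCs with quantile normalization (0.50). ASCs against FAPs, at -0.08, passed with the same total of reads (-0.65).

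Among the activin receptors, Acvr2a, a type II kinase, had 958, 943 and 1107 in ASCs, 1999.7 and 1645 in FAPs and 1545, 1702 and 1686 in injured FAPs. ASCs were lowest and the 2 muscle groups overlapped, and the log2 fold change was -0.86 (SE 0.12) in ASCs against FAPs, 0.72 (SE 0.11) in injured FAPs against ASCs and -0.14 (SE 0.12), not past the threshold, in injured FAPs against FAPs. Acvr2b, the other type II kinase, had 56.6, 72.5 and 53.98 in ASCs, 185 and 219 in FAPs and 40.02, 50.4 and 38.1 in injured FAPs. Its FAP libraries were high and the others low. Acvr2b was lower in ASCs (log2 fold change -1.72, SE 0.23, adjusted p = 0.000123 from limma) and fell in injured FAPs (log2 fold change -2.22, SE 0.23, adjusted p = 1.76e-05 from limma). Injured FAPs against ASCs, at -0.50, passed without ASC replicate 3 (-0.58), without injured FAP replicate 2 (-0.62) or with quantile normalization (-0.62). Acvr1b, the type I kinase ALK4, had 802, 638 and 594 in ASCs, 481 and 445 in FAPs and 900.0, 942 and 929 in injured FAPs. It rose in injured FAPs against FAPs (log2 fold change 1.00, SE 0.14, adjusted p = 0.000108 from limma). Its difference in ASCs against FAPs, at 0.54, passed without ASC replicate 3 (0.63) or FAP replicate 1 (0.59), and that in injured FAPs against ASCs, at 0.46, without ASC replicate 1 (0.59) or with the same total of reads (1.16).

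Gdf11 aside, which is described with the activins, all 12 tested BMP and GDF ligands passed in injured FAPs against ASCs, 10 lower and 2 higher, and 9 passed in each of the other comparisons, where 50.8%, 47.2% and 52.6% of all genes passed in injured FAPs against ASCs, ASCs against FAPs and injured FAPs against FAPs. ASCs were higher than FAPs in 5 and lower in 4, and after glycerol FAPs rose in 1 and fell in 8. Bmp7, a ligand with known effects on brown adipogenesis, had 2944, 2395 and 4008 in ASCs, 203 and 298 in FAPs and 76.9, 66.6 and 62.5 in injured FAPs. It stepped down from ASCs to FAPs to injured FAPs with no overlap. Bmp7 was 12.3-fold higher in ASCs than in FAPs (log2 fold change 3.62, SE 0.23, adjusted p = 7.56e-07 from limma) and fell 3.56-fold in injured FAPs (log2 fold change -1.83, SE 0.23, adjusted p = 5.57e-05 from limma), which left it 43.9-fold below ASCs (log2 fold change -5.46, SE 0.20, adjusted p = 2.24e-08 from limma). Bmp8a had 908, 391 and 466 in ASCs, 12.4 and 5.64 in FAPs and 16.5, 8.52 and 7.63 in injured FAPs. Only the ASC libraries were high, and FAPs and injured FAPs overlapped near the floor of the method. The log2 fold change of Bmp8a was 5.87 (SE 0.46) in ASCs against FAPs and -5.61 (SE 0.41) in injured FAPs against ASCs (adjusted p = 3.10e-06 and 1.11e-06 from limma), and 5.06 and -4.91 with a pseudocount of 8.

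Bmp5 had 52.7, 52.1 and 50.2 in ASCs, 3062 and 2263 in FAPs and 1559.8, 1734 and 1703 in injured FAPs. The ASC libraries were far below both muscle groups. Bmp5 was lower in ASCs than in FAPs (log2 fold change -5.64, SE 0.14, adjusted p = 4.30e-09 from limma) and 31.6-fold higher in injured FAPs than in ASCs (log2 fold change 4.98, SE 0.13, adjusted p = 2.45e-09 from limma). Its fall in injured FAPs against FAPs (log2 fold change -0.66, SE 0.14, adjusted p = 0.00195 from limma) was lost without FAP replicate 1 (-0.44) and with the same total of reads (-0.53). The exons of Bmp5 overlap those of the antisense gene Gm26903, and the sources do not state whether the counting used the strand, so reads of the 2 genes cannot be told apart there. The tenocyte sum followed the same order, lowest in ASCs and highest in FAPs.

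Bmp4, a ligand of Bmpr1a and Bmpr2 known to commit stromal cells to the adipocyte lineage, had 606, 643 and 738 in ASCs, 1735 and 1727 in FAPs and 356, 358 and 338 in injured FAPs. FAPs were the highest and injured FAPs the lowest, and no groups overlapped. Bmp4 fell 4.93-fold in injured FAPs against FAPs (log2 fold change -2.30, SE 0.11, adjusted p = 3.18e-07 from limma) and was lower in ASCs than in FAPs (log2 fold change -1.39, SE 0.11, adjusted p = 4.48e-06 from limma); against ASCs injured FAPs were at -0.91 (SE 0.10), and at -0.21, not past the threshold, with the same total of reads. Bmp2, the closest relative of Bmp4, had 2380.5, 2184 and 3372 in ASCs, 1117 and 1034 in FAPs and 1509.6, 1138 and 1376 in injured FAPs. ASCs were the high group for this gene. Its log2 fold change was 1.27 (SE 0.18) in ASCs against FAPs, 0.31 (SE 0.18) in injured FAPs against FAPs, which did not pass, and -0.96 (SE 0.16) in injured FAPs against ASCs, whose call was lost with the same total of reads (-0.26). In mean level per kilobase of exon, Bmp2 was above Bmp4 in ASCs (744 and 295) and in injured FAPs (377 and 156), and below it in FAPs (303 and 770.2).

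Gdf10 (BMP3B) had 35058, 31573 and 38712 in ASCs, 31709 and 33038 in FAPs and 8675, 7139.9 and 8409.7 in injured FAPs. ASCs and FAPs overlapped, and the injured FAP libraries were all below them. Gdf10 fell 4.02-fold in injured FAPs against FAPs (log2 fold change -2.01, SE 0.13, adjusted p = 9.83e-07 from limma), and was lower than in ASCs by a log2 fold change of -2.12 (SE 0.12) (-1.44 with quantile normalization). Between ASCs and FAPs it was at 0.11 (SE 0.13), and at -0.63, past the threshold in the other direction, with quantile normalization. Bmp3, its nearest relative and an inhibitor of other BMPs, had 362, 393 and 308 in ASCs, 318 and 348 in FAPs and 47.1, 57.3 and 43.5 in injured FAPs. The injured FAP libraries were again the low ones. Bmp3 fell 6.67-fold in injured FAPs against FAPs (log2 fold change -2.74, SE 0.18, adjusted p = 1.12e-06 from limma). Gdf10 was the most abundant BMP or GDF ligand per kilobase of exon in all 3 groups, with mean levels of 6739.7 in ASCs, 6214 in FAPs and 1549.9 in injured FAPs.

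Bmp6 had 374, 351 and 452 in ASCs, 895 and 959.6 in FAPs and 693, 593 and 636 in injured FAPs. The groups did not overlap, with ASCs lowest and FAPs highest, and the log2 fold change was -1.25 (SE 0.13) in ASCs against FAPs and 0.71 (SE 0.12) in injured FAPs against ASCs. Injured FAPs against FAPs, at -0.53 (SE 0.13), passed without FAP replicate 1 (-0.59), without injured FAP replicate 1 (-0.59), and with quantile normalization (-0.67) or a common 75th percentile (-0.63). Gdf15, a stress-induced ligand, had 469, 399.8 and 231 in ASCs, 78.9 and 85.6 in FAPs and 196, 124 and 177 in injured FAPs. It was highest in ASCs and lowest in FAPs, with log2 fold changes of 2.08 (SE 0.29) in ASCs against FAPs, 0.98 (SE 0.29) in injured FAPs against FAPs and -1.11 (SE 0.26) in injured FAPs against ASCs. Its rise in injured FAPs against FAPs missed the threshold without FAP replicate 1 (adjusted p = 0.0727 from limma, log2 fold change 0.92), FAP replicate 2 (0.0511, 1.03) or injured FAP replicate 1 (0.0502, 0.84). Against ASCs it missed with the same total of reads (-0.41).

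The other ligands had lower values. Gdf2 (BMP9), whose gene lies next to Gdf10 on the same strand, had 25.03, 23.8 and 23.9 in ASCs, 86.5 and 95.02 in FAPs and 4.71, 2.32 and 5.34 in injured FAPs. FAPs were highest and injured FAPs near the floor, with log2 fold changes of -1.86 (SE 0.38), -4.21 (SE 0.38) and -2.35 (SE 0.34) in the 3 comparisons in the order above, and -3.03 and -1.42 in the latter 2 with a pseudocount of 8. Gdf9 had 191, 136 and 168 in ASCs, 38.04 and 56.4 in FAPs and 19.6, 17.8 and 35.8 in injured FAPs. It stepped down in the order of Bmp7 (1.80 (SE 0.33), -0.96 (SE 0.33) and -2.76 (SE 0.30)). Its fall in injured FAPs against FAPs was lost without FAP replicate 2 (-0.69), injured FAP replicate 1 (-0.85) or injured FAP replicate 2 (-0.78), and with quantile normalization (-0.48). Gdf6 had 81.7, 64.6 and 92.9 in ASCs, 48.5 and 63.03 in FAPs and 30.6, 29.4 and 12.97 in injured FAPs, and the injured FAP libraries were lowest (-1.24 (SE 0.37) against FAPs and -1.75 (SE 0.33) against ASCs). The fall against FAPs was lost without FAP replicate 2 (-1.06, adjusted p = 0.0983 from limma) and with quantile normalization (-0.80), which also let ASCs against FAPs pass (1.05, against 0.50).

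Of the 5 BMP receptors, 2 passed in ASCs against FAPs, 2 in injured FAPs against FAPs and 3 in injured FAPs against ASCs (47.2%, 52.6% and 50.8% of all genes). Bmpr1a, the type I kinase ALK3, had 2544, 2565 and 3012 in ASCs, 2884 and 2451 in FAPs and 2959, 3099.9 and 3104 in injured FAPs. Its groups lay close together, and the log2 fold changes were 0.02 (SE 0.11), 0.20 (SE 0.11) and 0.18 (SE 0.10), none of them past the threshold except the last with the same total of reads (0.88). Bmpr2, the type II kinase, had 6699, 4108 and 5367 in ASCs, 3278 and 2534 in FAPs and 2920.4, 2873 and 2973 in injured FAPs. ASCs were above both muscle groups, which overlapped. Its log2 fold change was 0.87 (SE 0.18) in ASCs against FAPs and -0.86 (SE 0.16) in injured FAPs against ASCs, and both calls were lost with quantile normalization (0.41 and -0.52) and with the same total of reads (0.31 and -0.16).

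Bmpr1b, the type I kinase ALK6, was low and had the largest differences of these 5, with 65.9, 40.8 and 22.6 in ASCs, 179 and 213 in FAPs and 342, 414 and 479 in injured FAPs. ASCs were lowest and injured FAPs highest, without overlap. It was lower in ASCs than in FAPs (log2 fold change -2.28, SE 0.36, adjusted p = 0.000342 from limma) and higher in injured FAPs than in ASCs (log2 fold change 3.34, SE 0.32, adjusted p = 7.50e-06 from limma). Its rise in injured FAPs against FAPs (log2 fold change 1.06, SE 0.36, adjusted p = 0.0233 from limma) missed the threshold without FAP replicate 1 (0.94), FAP replicate 2 (1.19), injured FAP replicate 2 (1.05) or injured FAP replicate 3 (0.94), at adjusted p of 0.124, 0.0641, 0.0543 and 0.0786 from limma. Acvrl1 (ALK1), known mainly from endothelial cells, had 5338, 4340.2 and 5509 in ASCs, 4756 and 4974 in FAPs and 2726, 2877 and 2575 in injured FAPs. It fell in injured FAPs against FAPs (log2 fold change -0.84, SE 0.12, adjusted p = 0.000131 from limma) and was lower than in ASCs (-0.89 (SE 0.10)), a call that was lost with quantile normalization (-0.56) and the same total of reads (-0.19). Of the endothelial markers 8 fell against FAPs, as given above, and only Tek was lower than in ASCs; their part was not tested. Acvr1 (ALK2) lay between 1251 and 1598 in the 8 libraries, with log2 fold changes of 0.02 (SE 0.11), -0.14 (SE 0.11) and -0.16 (SE 0.10).

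Bmp1, a protease that trims procollagens and cleaves chordin and is no BMP ligand, had 44359, 29319 and 40310.1 in ASCs, 16510.4 and 21058 in FAPs and 10337, 11151 and 10095 in injured FAPs. ASCs were highest and injured FAPs lowest. It fell in injured FAPs against FAPs (log2 fold change -0.83, SE 0.18, adjusted p = 0.0021 from limma) and was lower than in ASCs by a log2 fold change of -1.83 (SE 0.16), or -1.09 with quantile normalization. ASCs against FAPs were at 1.01 (SE 0.18), a call that was lost with quantile normalization (0.20) and with the same total of reads (0.44).

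The BMP antagonists Chrd, Nbl1 and Nog, which bind BMPs outside the cell, fell in injured FAPs against FAPs. Chrd (chordin) had 1414, 1419 and 1852 in ASCs, 1571 and 1783 in FAPs and 253, 213 and 274 in injured FAPs. ASCs and FAPs overlapped and the injured FAP libraries were all far lower. Chrd fell 6.79-fold against FAPs (log2 fold change -2.76, SE 0.15, adjusted p = 5.22e-07 from limma) and was 6.29-fold lower than in ASCs (log2 fold change -2.65, SE 0.14, adjusted p = 1.30e-07 from limma); in ASCs against FAPs, at -0.11, it passed with the same total of reads (-0.68). Nbl1 (DAN) had 14139, 8396 and 11087 in ASCs, 18421 and 19891 in FAPs and 4001, 3789.7 and 4478 in injured FAPs. FAPs were highest and injured FAPs lowest. Nbl1 fell 4.69-fold in injured FAPs against FAPs (log2 fold change -2.23, SE 0.18, adjusted p = 3.93e-06 from limma), and the log2 fold change was -0.80 (SE 0.18) in ASCs against FAPs (-1.48 with quantile normalization) and -1.43 (SE 0.16) in injured FAPs against ASCs.

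Nog (noggin) had 18.4, 23.8 and 13.8 in ASCs, 97.9 and 105 in FAPs and 52.6, 49.6 and 54.2 in injured FAPs. ASCs were lowest and FAPs highest, with log2 fold changes of -2.41 (SE 0.28), -0.95 (SE 0.28) and 1.46 (SE 0.25). Its fall in injured FAPs against FAPs was lost without FAP replicate 2 (-0.90) and with quantile normalization (-0.62). In mean level per kilobase of exon Nbl1 was the most abundant of these antagonists in FAPs, at 9422, where Chrd was at 268 and Nog at 59.97.

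None of the 3 tested genes of the follistatin family passed in injured FAPs against FAPs with limma, edgeR or DESeq2, where 52.6% of all genes passed with limma. Fst (follistatin), which traps activins and myostatin, had 11747, 8047 and 9851 in ASCs, 3305 and 2976 in FAPs and 3322, 2971 and 3132 in injured FAPs. ASCs were higher and the 2 muscle groups overlapped. Fst was 3.11-fold higher in ASCs than in FAPs (log2 fold change 1.64, SE 0.15, adjusted p = 7.24e-06 from limma) and 3.11-fold lower in injured FAPs than in ASCs (log2 fold change -1.64, SE 0.13, adjusted p = 2.04e-06 from limma). Its log2 fold change in injured FAPs against FAPs was 0.00 (SE 0.15). Fstl1, a secreted glycoprotein, was at 79171, 79583 and 97608 in ASCs, 40473 and 40483 in FAPs and 38993, 39836 and 40536 in injured FAPs. ASCs were again above the muscle groups, and Fstl1 had the highest level per kilobase of exon of the 62 genes in ASCs (17389.8), with 8237 in FAPs and 8097 in injured FAPs. Its log2 fold changes of 1.07 (SE 0.14) in ASCs against FAPs and -1.10 (SE 0.12) in injured FAPs against ASCs did not pass with quantile normalization (0.27 and 0.15, the latter reversed in direction) or with the same total of reads (0.50 and -0.40). Fstl3 had 585, 480.2 and 471 in ASCs, 797 and 859.9 in FAPs and 774, 766 and 741 in injured FAPs, and its exons overlap those of Prss57 on the other strand. It was lower in ASCs than in FAPs (-0.70 (SE 0.12)), while injured FAPs against ASCs, at 0.58 (SE 0.11), passed without ASC replicate 1 (0.68), without injured FAP replicate 3 (0.59), in edgeR (0.66) and DESeq2 (0.58) and with 2 of the other scalings (0.69 with a common 75th percentile and 1.27 with the same total of reads).

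Of the 8 SMAD genes, 2 passed in ASCs against FAPs, 2 in injured FAPs against FAPs and 4 in injured FAPs against ASCs (47.2%, 52.6% and 50.8% of all genes). Smad7, the inhibitor that TGF-beta itself induces, had 6657, 3669.6 and 4158 in ASCs, 877 and 977 in FAPs and 1883, 1802 and 1622 in injured FAPs. FAPs were lowest and ASCs highest, with no overlap. Smad7 was 5.04-fold higher in ASCs than in FAPs (log2 fold change 2.33, SE 0.21, adjusted p = 7.64e-06 from limma), rose 1.91-fold in injured FAPs (log2 fold change 0.93, SE 0.21, adjusted p = 0.00277 from limma) and stayed lower there than in ASCs (log2 fold change -1.40, SE 0.19, adjusted p = 8.09e-05 from limma). Smad6, the inhibitor that BMPs induce, had 681, 603 and 544 in ASCs, 569 and 516 in FAPs and 654, 516 and 469.8 in injured FAPs. Its groups overlapped in every comparison, with log2 fold changes of 0.16 (SE 0.16), 0.00 (SE 0.16) and -0.16 (SE 0.14). Smad1 had 2706, 1821 and 1986 in ASCs, 778 and 708 in FAPs and 980.0, 853 and 850.4 in injured FAPs, with ASCs above the rest. Its log2 fold change was 1.53 (SE 0.16) in ASCs against FAPs and -1.26 (SE 0.14) in injured FAPs against ASCs, and the latter call was lost with the same total of reads (-0.56).

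Smad2 and Smad3, which carry the TGF-beta signal, passed in no comparison. Smad2 had 981, 1039.7 and 1075 in ASCs, 983 and 927 in FAPs and 1389, 1335 and 1451 in injured FAPs. The injured FAP libraries were highest, at a log2 fold change of 0.54 (SE 0.10) against FAPs (adjusted p = 0.000663 from limma), which passed without FAP replicate 1 (0.59), in edgeR (0.59) and with the same total of reads (0.67). Against ASCs, at 0.43, it passed with the same total of reads (1.13). Smad3 had 3673, 2332 and 2301 in ASCs, 3052 and 2919 in FAPs and 2535, 2434 and 2183 in injured FAPs, and passed only in ASCs against FAPs with the same total of reads (-0.71, against -0.14). Smad4, the shared partner, was between 1997 and 3561 and passed in injured FAPs against ASCs (-0.64 (SE 0.11)). That call was lost without ASC replicate 1 (-0.55), in edgeR (-0.56) and under each other scaling, where the same total of reads gave 0.06, reversed in direction. Smad4 in ASCs against FAPs, at 0.45, passed without FAP replicate 1 (0.59).

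Smad5 lay between 1514 and 1889, with log2 fold changes of -0.03 (SE 0.11), 0.07 (SE 0.11) and 0.09 (SE 0.09), and passed only with the same total of reads (-0.59 for ASCs against FAPs and 0.79 for injured FAPs against ASCs). Smad9, the least abundant SMAD, had 54.01, 73.6 and 69.05 in ASCs, 90.3 and 57.4 in FAPs and 121, 117 and 103 in injured FAPs. It passed in injured FAPs against FAPs (0.65 (SE 0.25)) and against ASCs (0.79 (SE 0.22)). Against FAPs the call was lost without FAP replicate 2 (0.32), without any of injured FAP replicates 1 to 3 (0.60, 0.62 and 0.72), with a common 75th percentile (0.55) and with no filter on low values (0.65). ASCs against FAPs, at -0.15, passed with the same total of reads (-0.70).

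Other genes of the pathway were taken from lists of 107 genes with known roles or responses, of which 104 were in the table and 89 had a mean of at least 10. In ASCs against FAPs 55 of these 89 passed (30 higher, 25 lower; 47.2% of all genes passed, 23.4% higher and 23.8% lower), in injured FAPs against FAPs 59 (24 higher, 35 lower; 52.6% of all genes, 24.9% and 27.7%) and in injured FAPs against ASCs 56 (24 higher, 32 lower; 50.8% of all genes, 25% and 25.8%). The split in ASCs against FAPs was 19 and 29 with quantile normalization (3047 and 3004 of all genes), 20 and 29 with a common 75th percentile (2452 and 4142) and 15 and 34 with the same total of reads (1592 and 6317). Genes named below as largest in a list were ranked among those with a mean of at least 100. In injured FAPs against ASCs it was 24 and 21 with quantile normalization (3421 and 3401 of all genes) and 40 and 15 with the same total of reads (7378 and 1692 of all genes).

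Among 12 tested further ligands and coreceptors, 2 were higher and 6 lower in ASCs against FAPs, 3 rose and 6 fell in injured FAPs against FAPs, and 4 were higher and 2 lower in injured FAPs against ASCs (all genes: 47.2%, 52.6% and 50.8% passed). Rgma, a BMP coreceptor, was lower in ASCs than in FAPs (-2.63), fell in injured FAPs (-0.95) and was higher there than in ASCs (1.68). Eng (endoglin), a coreceptor of ALK1, was lower in ASCs (-1.52) and higher in injured FAPs than in ASCs (1.23). Itgav, the integrin subunit that helps to release latent TGF-beta, was higher in ASCs than in FAPs (0.82), rose in injured FAPs (1.46) and was higher there than in ASCs (0.64). The first Itgav call was lost without ASC replicate 1 (0.58) or FAP replicate 2 (0.77) and with quantile normalization (0.38) or the same total of reads (0.26), and the last without ASC replicate 2 (0.39) or injured FAP replicate 3 (0.58). Rgmb was lower in ASCs (-0.65) and fell in injured FAPs (-1.08), and the first call was lost without ASC replicate 2 (-0.52) or FAP replicate 2 (-0.50). Lrrc32, which displays latent TGF-beta on the cell surface, rose in injured FAPs (0.80), a call that missed without FAP replicate 1 (0.81) or 2 (0.79).

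Of 19 tested extracellular modulators, 7 were higher and 4 lower in ASCs against FAPs, 5 rose and 8 fell in injured FAPs against FAPs, and 3 were higher and 10 lower in injured FAPs against ASCs (all genes: 47.2%, 52.6% and 50.8% passed). Vasn, which binds TGF-beta, and Chrdl1, a chordin-like BMP antagonist, were higher in ASCs than in FAPs (3.27 and 1.88) and lower in injured FAPs than in ASCs (-2.67 and -2.66). Htra1, a secreted protease, and Twsg1, a chordin partner, were also higher in ASCs (1.20 and 1.20), and both calls were lost with quantile normalization (0.46 and 0.55). Bgn (biglycan) and Kcp were lower in ASCs (-1.30 and -1.04). The largest rises in injured FAPs against FAPs were in the chordin protease Tll1 (1.53), in Thbs1 (1.31), which can activate latent TGF-beta, in Bmper (0.93) and in Tsku (0.62). Tsku was lost without FAP replicate 2 (0.57), with quantile normalization (0.52) and with a common 75th percentile (0.52). The largest falls among genes with a mean of at least 100 were in Kcp (-2.53), Dcn (-1.36), the gene of the TGF-beta binding proteoglycan decorin, Crim1 (-1.25) and Chrdl1 (-0.78). Against ASCs, injured FAPs were lower in Dcn (-1.86, or -0.70 with quantile normalization) and Crim1 (-1.80) and higher in Thbs1 (1.17), Bgn (1.08) and Tll1 (0.65, or 0.51, not past the threshold, with quantile normalization).

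Of 24 tested intracellular regulators, 11 were higher and 2 lower in ASCs against FAPs, 6 rose and 6 fell in injured FAPs against FAPs, and 1 was higher and 10 lower in injured FAPs against ASCs (all genes: 47.2%, 52.6% and 50.8% passed). Tgif1 and Skil, which repress SMAD-driven transcription, were higher in ASCs than in FAPs (2.15 and 1.37) and rose in injured FAPs (1.48 and 1.05), as did Strap (1.23 and 1.44). Smurf2, a ubiquitin ligase for SMADs and their receptors, was higher in ASCs (1.24), and Tgif2 rose in injured FAPs (2.36) and was the gene higher there than in ASCs (1.63). Zfp423, a BMP-SMAD cofactor of preadipocytes, was lower in ASCs (-0.95), fell in injured FAPs (-2.25) and was lower there than in ASCs (-1.29). Tob1 fell in injured FAPs (-1.37) and was lower than in ASCs (-1.51), as was Bambi, a decoy receptor (-1.41). Sptbn1, a SMAD adaptor, fell as well (-1.09), and its difference from ASCs (-1.10) was lost with quantile normalization (-0.26) and the same total of reads (-0.40). Tab1 was lower in ASCs (-1.58), and its fall in injured FAPs (-0.99) was lost when any of 6 libraries was left out (-0.89 without FAP replicate 1, -1.10 without FAP replicate 2, -0.99 without ASC replicate 3, and -0.92, -1.09 and -0.97 without injured FAP replicate 1, 2 and 3), with no filter on low values (-0.99) and with the same total of reads (-0.86); its adjusted p was 0.0441 from limma.

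Of 27 tested genes known to respond to TGF-beta, 12 were higher and 8 lower in ASCs against FAPs, 10 rose and 9 fell in injured FAPs against FAPs, and 11 were higher and 7 lower in injured FAPs against ASCs. Of all genes 23.4%, 24.9% and 25% were higher and 23.8%, 27.7% and 25.8% lower in these comparisons. Ccn2 (CTGF) had 2149.9, 1441 and 1506 in ASCs, 19548 and 17033 in FAPs and 22829, 19897 and 20236 in injured FAPs. ASCs were the low group, 10.9-fold below FAPs (log2 fold change -3.45, SE 0.17, adjusted p = 1.42e-07 from limma), and injured FAPs against FAPs, at 0.20 (SE 0.17), did not pass. Timp1 (3.94), Runx1 (2.60) and Il11 (2.54) rose in injured FAPs against FAPs.

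The falls among these genes at 1 dpi were largest in the contractile genes Acta2 (-1.88) and Tagln (-1.84), in Col1a1 (-1.59) and in Snai2 (-1.49). Acta2 had 256, 109.9 and 87.9 in ASCs, 5396 and 4848 in FAPs and 1399.8, 1441 and 1325 in injured FAPs. It and Tagln are also on the smooth muscle and pericyte list, whose sum was highest in FAPs, Scx is also on the tenocyte list, and Col1a1 and Col3a1, like Dcn above, are on the stromal list; the part of these cells was not tested. With quantile normalization Col1a1 was at -0.04 in injured FAPs against FAPs. The lowest in ASCs against FAPs were Scx (-6.24), Acta2 (-5.23), Tnc (-4.78) and Tagln (-3.73), and the highest Postn (3.22), Fn1 (2.43), Il11 (2.38) and Tgif1 (2.15). Tnc (6.74), Scx (5.16), Ccn2 (3.65) and Acta2 (3.35) were the highest in injured FAPs against ASCs. The lowest there were Fn1 (-2.50), Col1a1 (-2.37), Col3a1 (-2.09) and Junb (-1.56), which quantile normalization moved to -1.07, -0.14, 0.07 and -0.37.

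**Figure D4:**
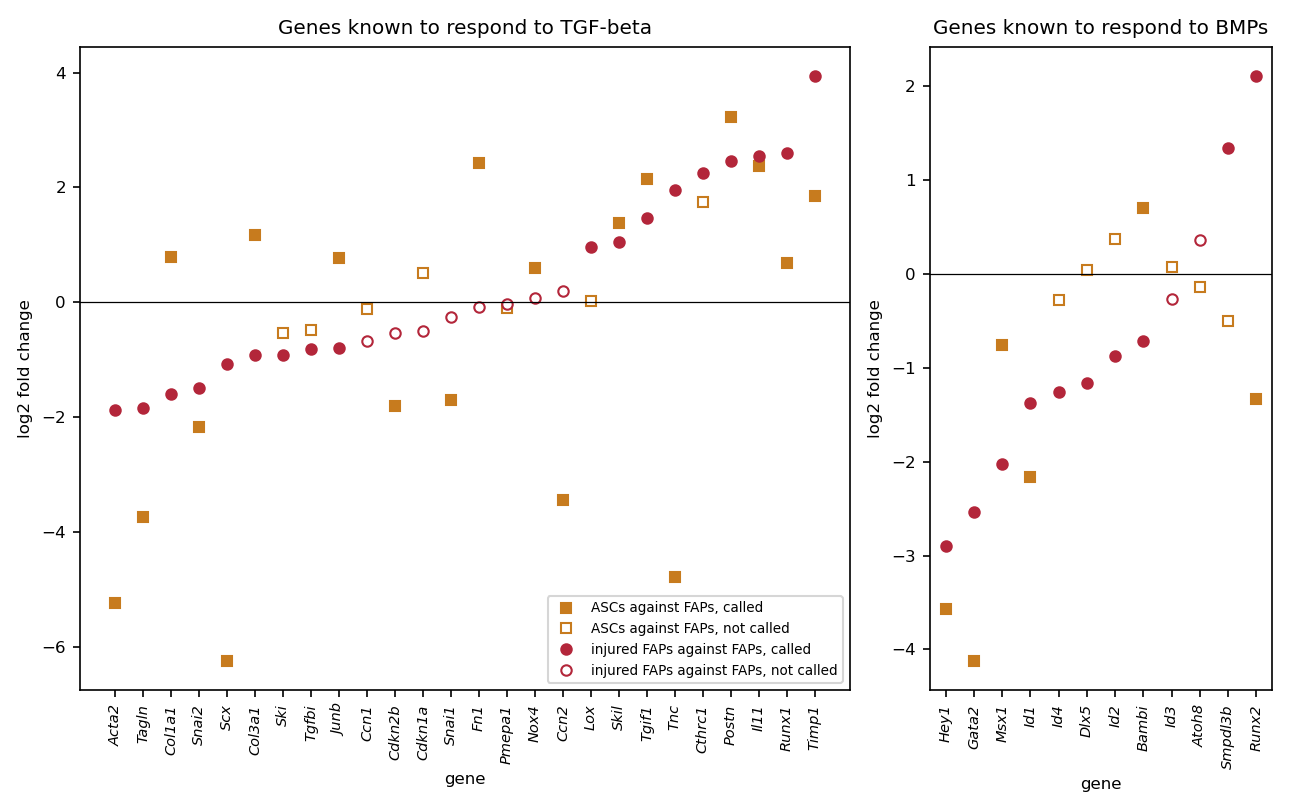
Log2 fold changes of tested genes known to respond to TGF-beta (left, 26 genes) and to BMPs (right), in ASCs against FAPs (squares) and injured FAPs against FAPs (circles), which share the FAP libraries. Filled symbols passed the threshold; the genes are ordered by the value in injured FAPs, from Acta2 (-1.88) to Timp1 (3.94) and from Hey1 (-2.89) to Runx2 (2.11).

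Of 12 tested genes known to respond to BMPs, 1 was higher and 5 lower in ASCs against FAPs, 2 rose and 8 fell in injured FAPs against FAPs, and 5 were higher and 5 lower in injured FAPs against ASCs. These are 6, 10 and 10 of the 12, where 47.2%, 52.6% and 50.8% of all genes passed. Id1, a direct target of the BMP SMADs, had 92.2, 97.4 and 129 in ASCs, 447 and 506 in FAPs and 208, 165 and 178 in injured FAPs. FAPs were highest and ASCs lowest, with no overlap. Id1 was lower in ASCs than in FAPs (log2 fold change -2.17, SE 0.19, adjusted p = 6.36e-06 from limma) and fell 2.59-fold in injured FAPs (log2 fold change -1.38, SE 0.19, adjusted p = 0.000113 from limma); its difference from ASCs there (0.79 (SE 0.17)) was lost with quantile normalization (0.55). Id2 had 1566, 1969.6 and 2107 in ASCs, 1365 and 1522 in FAPs and 806, 767 and 780.3 in injured FAPs. The injured FAP libraries were lowest, at -0.88 (SE 0.13) against FAPs and -1.25 (SE 0.12) against ASCs, the latter lost with the same total of reads (-0.55). Id3 had 5468, 7121 and 7596 in ASCs, 6891 and 5823 in FAPs and 5858, 4919.6 and 5132 in injured FAPs, and its groups overlapped in all 3 comparisons (0.07 (SE 0.15), -0.26 (SE 0.15) and -0.33 (SE 0.13)).

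Hey1 (-2.89), Msx1 (-2.02) and Id4 (-1.25) fell in injured FAPs with Id1, while Runx2, the osteoblast regulator, rose (2.11), as did Smpdl3b (2.54-fold). In ASCs against FAPs Hey1 (-3.57), Runx2 (-1.33) and Msx1 (-0.75) were lower and Bambi higher (0.70); without ASC replicate 1 the Msx1 and Bambi calls were lost (-0.51 and 0.58), and that of Bambi also with a common 75th percentile (0.49) and the same total of reads (0.14). Injured FAPs were higher than ASCs in Runx2 (3.44), Smpdl3b (1.85) and Hey1 (0.68). They were lower in Bambi (-1.41), Msx1 (-1.27) and Id4 (-0.97). The Hey1 call was lost without injured FAP replicate 3 (0.51), with quantile normalization (0.55) and with a pseudocount of 8 (0.58), and the Msx1 and Id4 calls with the same total of reads (-0.58 and -0.28).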

How the data were processed

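RNA of 9 libraries was sequenced: 3 of ASCs, 2 of FAPs, 3 of injured FAPs and 1 of CD31+CD45+ cells. According to the submitters' processing notes, the authors used fastq_illumina_filter 0.1 and FastQC 0.11.9 to clean and inspect the reads, HISAT2 2.2.1 for alignment (mm10), featureCounts (Subread 2.0.1) for counting and DESeq2 1.34.0 to normalize the counts. The deposited table holds these normalized counts, a signal on a linear scale. In every library 100% of the values were whole reads, within 0.1, after division by the value of 1 read, so reads were recovered by that division; 2 columns of the file were empty. The number of reads sets the precision: a value near that of 3 reads differs by chance alone from library to library.

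The pathway genes and all gene and marker lists were chosen with earlier results of these data known. Of 26214 genes, the 13601 with a mean of at least 10 over the 8 ASC and FAP libraries were tested as log2 of the value plus 1 in 1 linear model with 3 groups (limma 3.58.1 with trend, R 4.3.3, 5 residual degrees of freedom), and p-values were adjusted by Benjamini and Hochberg over all of them for each comparison. A gene passed where adjusted p was below 0.05 with a log2 fold change larger than 0.58 in size. The model was run on simulated data of 13548 genes, of which 198 were changed 4-fold in injured FAPs and none between ASCs and FAPs. In each of the comparisons with injured FAPs limma called 197 of them. Of the other genes it called 5 against FAPs and 8 against ASCs. The simulation gave every gene the same relative spread, took the scaling factors as known and changed far fewer genes than the data. It therefore says nothing of how the scaling affects the calls. Count models were run on the recovered reads: edgeR 4.0.16 called 6450, 7303 and 7000 of all genes and DESeq2 1.42.0 called 6412, 7227 and 6865, where limma called 6416, 7153 and 6909 (ASCs against FAPs, injured FAPs against FAPs, injured FAPs against ASCs). Other alternatives were 3 scalings, 2 pseudocounts, other filters, fits of the compared groups only, unadjusted p-values, the replicate number as a block and each library left out.

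Every gene of the symbol rule was counted; results of some genes are not reported here, in text or figures, and these genes stay in the counts. Values in every library were given for genes with a mean of at least 100 that passed a comparison without overlap between its groups, at most 12 rises and 12 falls in each, and for the pairs of TGF-beta ligands with receptors, Bmp2 and Bmp4 with Bmpr1a and Bmpr2, and Inhba with Acvr2a and Acvr2b. Of the other pathway genes, the 4 largest rises and falls in each list and comparison with a mean of at least 100 were named, and Ccn2, Id1, Id2, Id3, Smad6 and Smad7. Other genes named with values in every library, such as Acta2, Gdf2 and Nog, were chosen after their values were seen. Levels of different genes were compared only after division by exon length (GENCODE M21, GRCm38, which matched 24918 genes by symbol and all 62 pathway genes). The study counted reads on mm10 transcripts taken from the UCSC genome browser, so the lengths come from another annotation than the counts. The order of genes per kilobase holds for these lengths. The CD31+CD45+ library has no replicate and was left out of all tests.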

Additional observations from a re-analysis of the deposited data

Results flagged for a closer look

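The CD31+CD45+ library, which the comparisons do not use, held 3 tested pathway genes at a level at least 2 times the highest of the 8 other libraries. Bmp6 was at 5182 there, where the highest other library had 959.6. Tgfb1 was at 6809.7, where the highest other library had 2732. Acvr2b was at 507, where the highest other library had 219. The library has no replicate, and these differences were not tested.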

How the results depend on the processing

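Of 20 alternatives, none moved the total counts of pathway genes, other pathway genes or all genes past the threshold by more than 1.5 times. The count of a single role could move further. Beside Smad1 and Smad7, Smad3, Smad5 and Smad9 passed in ASCs against FAPs with the same total of reads. The totals take higher and lower calls together, and some alternatives moved their split. With the same total of reads, injured FAPs against ASCs had 17 pathway genes higher and 17 lower in place of 10 and 27, 40 and 15 other pathway genes in place of 24 and 32, and 7378 and 1692 of all genes in place of 3405 and 3504; ASCs against FAPs had 15 other pathway genes higher in place of 30, and 1592 and 6317 of all genes higher and lower in place of 3183 and 3233. Quantile normalization gave 19 other pathway genes higher in ASCs against FAPs in place of 30, and 21 lower in injured FAPs against ASCs in place of 32. Without FAP replicate 2, 5 pathway genes rose in injured FAPs against FAPs in place of 8. In ASCs against FAPs, 27 of the 33 calls of pathway genes passed under every alternative that tested the gene, in injured FAPs against FAPs 19 of 28, and in injured FAPs against ASCs 26 of 37; Gdf2, among these in all 3, was not tested with a mean of at least 50. With each library left out in turn, these counts ranged from 31 to 33, from 21 to 28 and from 37 to 38; those of the other pathway genes from 49 to 56, from 48 to 60 and from 56 to 58; and those of all genes from 5623 to 6688, from 6309 to 7370 and from 6590 to 7198. With 1 FAP library left out, the lone FAP library is assumed to vary like the other groups. Under the other settings the counts of pathway genes ranged from 30 to 35, from 26 to 29 and from 33 to 38. The scaling to the same total of reads was chosen after seeing the data. Some values past the threshold as reported or under the alternative reversed in direction, and the cause was not tested. With quantile normalization these were, in injured FAPs against ASCs, Ltbp4 (0.71), Fstl1 (0.15), Fbn1 (0.30), Postn (0.28) and Col3a1 (0.0713), in injured FAPs against FAPs Col3a1 (0.37), and in ASCs against FAPs Gdf10 (-0.63), Sptbn1 (-0.73) and Lox (-0.73). With the same total of reads they were, in injured FAPs against ASCs, Tgfb3 (0.63), Ltbp4 (0.62), Smad4 (0.0632), Dand5 (0.66), Fbn1 (0.00307) and Tgif1 (0.0208). Values short of the threshold both as reported and under the alternative also changed sign, such as Acvr2b in injured FAPs against ASCs, from -0.50 to 0.19 with the same total of reads. The sources do not say whether libraries with the same replicate number are paired. Deviations from the group mean correlated from -0.0545 to 0.0446 for the same number and from -0.123 to 0.123 for different numbers. The deviations of the 2 FAP libraries mirror each other by construction, so these values cannot decide it. With the number as a block, 33, 28 and 37 pathway genes passed; the block ended the calls of Tgfb2 in ASCs against FAPs (0.54) and Smad9 in injured FAPs against FAPs (0.66) and added Acvr1b (0.58) and Bmp6 (-0.59) in these comparisons. Depth limits Gdf2 and Bmp8a, whose lowest values stand for a few reads each.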

Other observations

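In the library of CD31+CD45+ cells of glycerol-injected quadriceps, 7 of the 49 tested genes were above all 8 other libraries (28.3% of all tested genes were), 28 were below all of them (25.8% of all tested genes) and 14 lay between (45.9%). Beside Tgfb1, Acvr2b and Bmp6, the genes above were Bmpr2 (7026, where the highest other library had 6699), Acvrl1 (9418, 5509), Smad5 (2594, 1889) and Smad6 (1055, 681). Among those below were Ltbp2 (75.3, where the lowest other library had 142), Gdf10 (166, 7139.9), Fst (191, 2971), Inhba (54.9, 158) and Chrd (51.8, 213). Ltbp4 lay between, at 75745, as did Bmp4, at 1518. Per kilobase of exon, Tgfb1 made up 74.7% of the TGF-beta ligands in this library, against 14.5%, 21.5% and 37.0% in ASCs, FAPs and injured FAPs. Without a replicate, none of these differences was tested. The largest marker sums of this library were 376999 for endothelial, 91609 for smooth muscle and pericyte, 65484 for stromal, 44262 for adipocyte and 33639 for leukocyte markers. The part of each cell type in its values was not tested.

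The report is limited by its samples. The libraries of a group came from pooled cells, with 2 libraries of FAPs, so the tests say nothing of the spread between animals. ASCs and FAPs differ in depot, and injured FAPs and ASCs differ in both depot and injection, so their difference is not an effect of injury. RNA levels say nothing of ligand release or SMAD phosphorylation. The sources do not give the strand setting of the counting, so where exons of 2 genes overlap on opposite strands (Bmp5, Ltbp2, Fstl3 and others) reads cannot be assigned. How the size factors were made is known only from the notes.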
